A study of Mus musculus with 8 samples.

Results

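The 10 genes described here encode the death receptors of the tumor necrosis factor receptor family and the proteins that carry their signal either to apoptosis or to necroptosis: *Fas*, *Tnfrsf1a*, *Tnfrsf1b*, *Tnfrsf10b*, *Tradd*, *Fadd*, *Cflar*, *Ripk1*, *Ripk3*, and *Mlkl*. They were taken by gene name from the 54532 genes of the deposited count table, and all 10 were found. Read counts came from 4 libraries of Zeb1-/- EpCAM+ LSK cells and 4 libraries of Zeb1-/- EpCAM- LSK cells. LSK cells are bone marrow cells that lack lineage markers and carry SCA-1 and C-KIT, a compartment of hematopoietic stem and progenitor cells (HSPCs), and the sort divided them by the epithelial adhesion molecule EpCAM. All donors were C57BL/6 mice of 8 to 12 weeks with floxed *Zeb1* and *Mx1-Cre*, and the cells were collected on day 14 after pIpC treatment. Because pIpC induces interferon and through it the *Mx1* promoter that drives Cre, it deletes *Zeb1* in blood cells and in other interferon-responsive tissues, and both fractions had been exposed to it. Both fractions were Zeb1-/-, so the comparison is between sorted fractions and not between deleted and control mice. The labels give 4 mice per genotype but do not tie a library to a mouse.

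In this pathway a ligand such as TNF, Fas ligand, or TRAIL clusters its receptor, and the receptor's death domain recruits the adaptors TRADD or FADD. FADD brings in caspase-8, which starts apoptosis and also cleaves RIPK1 and RIPK3, while cFLIP, the product of *Cflar*, pairs with caspase-8 and limits the death signal. Where caspase-8 is blocked, RIPK1 and RIPK3 assemble through their RHIM motifs, RIPK3 phosphorylates MLKL, and MLKL ruptures the plasma membrane, which is necroptosis. In the bone marrow, this arm is known for its part in the loss of HSPCs under inflammatory stress. Much of it is controlled by cleavage, ubiquitination, and phosphorylation, which read counts do not show.

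The libraries held 15225714 to 17073546 counted reads in the EpCAM+ fraction and 14114491 to 15929923 in the EpCAM- fraction. *Epcam* averaged 187 CPM (counts scaled to the size of the library after edgeR's TMM method) against 3.86 CPM, in the order of the labels, and *Zeb1* averaged 19.5 CPM against 11.9 CPM, although both fractions were Zeb1-/-. Counts over a whole gene cannot tell a recombined *Zeb1* allele from an intact one. Of 10 stem and progenitor markers, 8 were higher in the EpCAM+ fraction and none was lower, with summed levels of 2606 to 2782 CPM against 1441 to 2243 CPM. Over all 13560 tested genes, 21.8% were higher and 20.8% lower in the same test, which is given below. Markers of other cell types also moved with the fractions. The 7 plasma cell markers summed to 217 to 3631 CPM in EpCAM+ libraries, with EpCAM+ replicate 1 the highest, and to 4.27 to 11.6 CPM in EpCAM- libraries (3 of 4 tested higher). The 6 conventional dendritic cell markers summed to 17.01 to 222 CPM against 7.03 to 19.2 CPM (4 of 5 tested higher). Some genes of these 2 lists had few reads in EpCAM- libraries, such as *Jchain* (0 to 4 per library) and *Clec9a* (0 to 9). Such genes passed a filter on low counts through the EpCAM+ libraries in which they are high, so their calls are a description. The 8 neutrophil lineage markers summed to 1039 to 1604 CPM against 10710 to 17120 CPM (3 of 8 tested lower). Most of that sum was *Mpo*, with means of 781 against 10440 CPM, and 5 of the 8 did not pass. The 7 erythroid markers summed to 46.5 to 228 CPM against 1992 to 6878 CPM (6 of 7 tested lower). Of the remaining lists, B cell markers summed to 81.2 to 167 against 46.6 to 78.9 CPM (*Pax5* at 0 in all 8 libraries). T cell markers summed to 54.0 to 66.9 against 17.4 to 29.5 CPM. Most of that sum was *Lck*, with means of 55.4 against 21.9 CPM. *Cd3e* had 0 reads in every EpCAM- library and at most 1 in an EpCAM+ library. Natural killer cell markers summed to 1.118 to 6.809 against 0.478 to 1.37 CPM. Of these, *Ncr1* and *Klre1* were at 0 in every EpCAM- library and had 2 to 36 and 1 to 5 reads per EpCAM+ library. Monocyte markers summed to 33.3 to 314 against 145 to 778 CPM, megakaryocyte markers to 396 to 638 against 123 to 341 CPM, basophil and mast cell markers to 67.5 to 91.6 against 234 to 493 CPM, epithelial markers to 222 to 282 against 81.1 to 110 CPM, and plasmacytoid dendritic cell markers to 2.55 to 14.7 against 3.46 to 12.5 CPM (*Klk1* at 0 in all 8 libraries). Their part in the values of the 10 genes was not tested. In sorted populations of mixed cells, fewer cells that express a gene and less RNA of that gene per cell cannot be told apart.

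All 10 genes were detected in all 8 libraries and passed the filter on low counts. The fit with pairing by replicate number, given below, called more of the 10 genes. Without pairing, only *Tnfrsf10b*, the mouse receptor for TRAIL, passed the test, at 1.94 times the EpCAM- level in EpCAM+ HSPCs. None was called lower without pairing. By comparison, 21.8% of all 13560 tested genes were higher, 20.8% were lower, and 42.6% differed in either direction at the same threshold (edgeR's quasi-likelihood test, Benjamini-Hochberg adjusted p under 0.05). At an unadjusted p under 0.05, 2 of the 10 genes were higher and 2 were lower. The 95% interval of the log2 fold change lay within 1.5-fold in either direction for 7 of the 10 genes, against 43.5% of all tested genes, and the exceptions were *Fas*, *Tnfrsf10b*, and *Fadd*. The median size of the log2 fold change was 0.22 over the 10 genes and 0.33 over all tested genes, with median standard errors of 0.11 and 0.14. The median signed log2 fold change was 0.06 for the 10 genes and 0.02 for all tested genes.

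The replicate numbers of the labels paired the libraries, since same-numbered libraries shared deviations from their fraction means. With the number as a block, *Tnfrsf1b* and *Cflar* joined *Tnfrsf10b* as higher and *Mlkl* was lower in EpCAM+ HSPCs, so that 3 genes were higher and 1 was lower. In that fit 25.6% of all tested genes were higher and 24.7% were lower. The fitted EpCAM+ level in that fit was 1.19 times the EpCAM- level for *Tnfrsf1b*, 1.18 times for *Cflar*, and 0.862 times for *Mlkl*.

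Promoter sequence is shown for the 3 genes that passed the test only with the pairing, *Tnfrsf1b*, *Cflar*, and *Mlkl*, so that the receptor, the inhibitor, and the executor can be read side by side. Each is the 250 bases directly before the RefSeq start site on the gene's own strand (GRCm38.p6), at chr4:145246871-145247120 (minus strand) for *Tnfrsf1b*, chr1:58711241-58711490 (plus strand) for *Cflar*, and chr8:111338206-111338455 (minus strand) for *Mlkl*. Bases shortly after the start site were found in an annotated transcript for *Tnfrsf1b* and *Cflar* but not for *Mlkl*. The *Mlkl* window begins at 111338206, while the deposited gene ends at 111338177, so its start site is less certain. RefSeq windows were matched for 8 of the 10 genes, and *Tnfrsf10b* and *Tradd* had no entry. Capitals mark matches to any of 4 motifs, searched on both strands with none of the marked matches overlapping another.
Tnfrsf1b: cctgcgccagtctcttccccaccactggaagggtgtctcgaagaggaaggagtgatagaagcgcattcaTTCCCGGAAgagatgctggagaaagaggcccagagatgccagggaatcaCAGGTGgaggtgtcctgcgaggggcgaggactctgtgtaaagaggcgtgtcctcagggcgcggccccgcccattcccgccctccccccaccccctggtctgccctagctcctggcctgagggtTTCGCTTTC
Cflar: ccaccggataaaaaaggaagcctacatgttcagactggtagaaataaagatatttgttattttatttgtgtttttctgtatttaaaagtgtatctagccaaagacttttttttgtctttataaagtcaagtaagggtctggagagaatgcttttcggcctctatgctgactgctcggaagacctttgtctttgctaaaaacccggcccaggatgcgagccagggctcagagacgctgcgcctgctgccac
Mlkl: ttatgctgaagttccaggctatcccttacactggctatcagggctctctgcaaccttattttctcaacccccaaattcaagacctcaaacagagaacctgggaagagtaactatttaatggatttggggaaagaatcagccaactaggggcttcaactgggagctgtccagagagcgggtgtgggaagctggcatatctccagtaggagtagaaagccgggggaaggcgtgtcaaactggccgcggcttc

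The motifs were CAGGTG, an E-box that ZEB1 can bind; GAAANNGAA, the core of the interferon-stimulated response element; TTCNNNGAA, the gamma-activated site of STAT factors; and GGGANNTTC, a core of NF-kB sites. The *Tnfrsf1b* window held the gamma-activated site TTCCCGGAA, which begins 181 bases before the start site, the E-box beginning 132 bases before it, and, as its last 9 bases, the interferon-response core read on the opposite strand (TTCGCTTTC). The *Cflar* and *Mlkl* windows held none of the 4. Among the 8 genes with a window, the E-box and the interferon-response core were each found in 1 (*Tnfrsf1b* in both cases), the gamma-activated site in 4 (*Fas*, *Ripk1*, *Tnfrsf1a*, and *Tnfrsf1b*), and the NF-kB core in 0. A gene counted if any of its windows matched. *Ripk1* had 2 windows, and only window 2, from 34002624, matched, which lies inside the gene that starts at 34002363. The *Tnfrsf1a* window, from 125349473, also lies inside its gene, which starts at 125349362. Over all 32851 windows of this length the shares, per window and not per gene, were 17.2% for the E-box, 7.13% for the interferon-response core, 7.02% for the gamma-activated site, and 3.23% for the NF-kB core. These are matches of letters and not measured binding sites.

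To set the levels of the genes against each other, CPM were divided by the gene length of the table, and the 10 genes then spanned about 2 orders of magnitude. *Ripk3*, the kinase that activates MLKL, stood first in both fractions, at 60.7 ± 2.22 CPM per kilobase (SD, n = 4) in EpCAM+ HSPCs and 62.4 ± 3.42 in EpCAM- HSPCs, and its lowest library lay above the highest library of each of the 9 others. *Tnfrsf1a*, *Tradd*, and *Mlkl* followed at 27.1 to 32.8 CPM per kilobase in EpCAM+ HSPCs and at 31.4 to 32.1 in EpCAM- HSPCs. Within this trio, neighbours in the order overlapped in both fractions. *Tnfrsf1b* (10.7 and 9.07 CPM per kilobase), *Ripk1* (7.49 and 7.03), and *Cflar* (3.49 and 2.96) came next without overlap between neighbours. The low end was *Fadd* (1.48 and 1.94 CPM per kilobase), *Fas* (1.21 and 0.883), and *Tnfrsf10b* (0.526 and 0.270), where *Fadd* and *Fas* overlapped in EpCAM+ HSPCs only. The mean order of CPM per kilobase was the same in both fractions. In the authors' FPKM it was not. There *Cflar* moved up to place 5 in EpCAM+ and 6 in EpCAM- libraries, where *Ripk1* had places 6 and 5. *Fas* and *Fadd* had places 8 and 9 in EpCAM+ libraries and 9 and 8 in EpCAM- libraries. *Tnfrsf1b* moved down to place 7 in both, while *Ripk3* stayed first and *Tnfrsf10b* last.

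**Figure D1:**
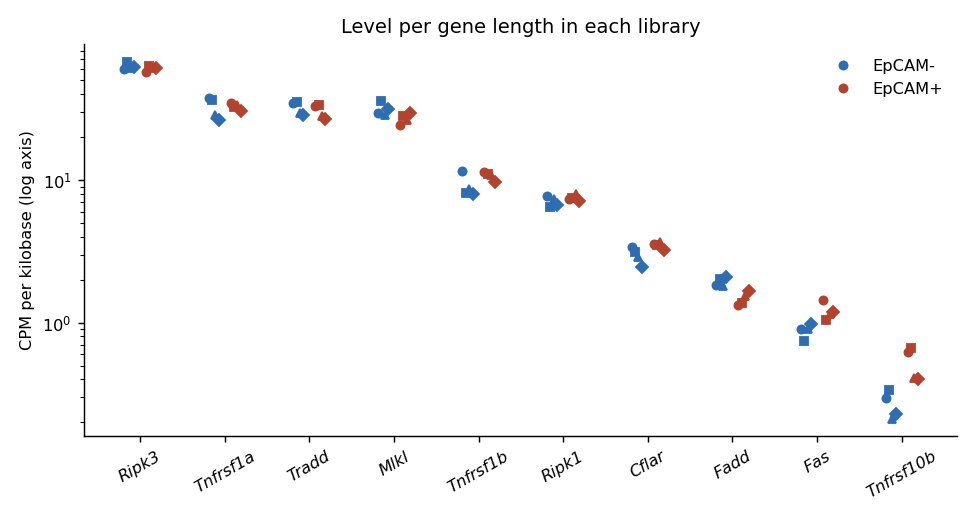
Level of each gene per kilobase of gene length in every library (vertical log axis, CPM per kilobase), with EpCAM- libraries in blue and EpCAM+ libraries in red, and a marker shape for each replicate number. *Ripk3* lies highest at 57.5 to 67.4 and *Tnfrsf10b* lowest at 0.213 to 0.666, and the fractions stay close for most genes compared with the distances between genes.

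Among the receptors, *Tnfrsf10b* (ENSMUSG00000022074, chromosome 14, 69767472 to 69784411, plus strand, GRCm38.p6) carries a death domain and binds TRAIL. It measured 3.40, 3.63, 2.23, and 2.21 CPM in EpCAM+ replicates 1 to 4 and 1.62, 1.85, 1.16, and 1.25 CPM in EpCAM- replicates 1 to 4. Every EpCAM+ library lay above every EpCAM- library, and within each fraction replicates 1 and 2 were higher than replicates 3 and 4. The values rest on 34 to 64 reads per EpCAM+ library and 17 to 26 reads per EpCAM- library. The means were 2.87 ± 0.753 CPM and 1.47 ± 0.322 CPM (SD, n = 4 per fraction), and the log2 fold change was 0.96 (SE 0.28, 95% interval 0.35 to 1.57, adjusted p = 0.0181, edgeR). EpCAM+ exceeded EpCAM- in 4 of 4 pairs, by 0.76 to 1.01 on the log2 CPM scale, and the paired adjusted p was 0.00898 (edgeR). The call was lost, with the log2 fold change at 0.82 to 0.86, without EpCAM+ replicate 1 (adjusted p = 0.0533, edgeR), without EpCAM+ replicate 2 (adjusted p = 0.058), or without EpCAM- replicate 3 (adjusted p = 0.0536). EpCAM+ replicate 1 was also the library with the highest plasma cell markers, whose part in this result was not tested beyond leaving that library out.

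*Fas* (ENSMUSG00000024778, chromosome 19, 34290659 to 34327770, plus strand) encodes the receptor of Fas ligand. It was similarly scarce, with 33 to 40 reads per EpCAM+ library and 18 to 26 per EpCAM- library. The levels were 2.62, 1.87, 2.07, and 2.14 CPM in EpCAM+ replicates 1 to 4 and 1.62, 1.33, 1.64, and 1.76 CPM in EpCAM- replicates 1 to 4. The fractions did not overlap, as was the case for 3 of the 10 genes and for 40.1% of all tested genes, but the EpCAM+ minimum and the EpCAM- maximum lay close together. The log2 fold change was 0.45 (SE 0.23, 95% interval -0.06 to 0.96, adjusted p = 0.14, edgeR), and pairing did not bring it past the threshold (adjusted p = 0.156). The interval runs from 0.957 to 1.94 times the EpCAM- level.

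*Tnfrsf1a* (chromosome 6, 125349362 to 125362484, plus strand), which encodes the TNF receptor with a death domain, was the most abundant receptor at both fractions' means of 85.1 ± 4.39 CPM and 83.2 ± 14.4 CPM (SD, n = 4 per fraction). The EpCAM+ libraries were close to each other at 90.1, 84.6, 86.3, and 79.5 CPM, and the EpCAM- libraries were spread at 97.2, 93.6, 74.3, and 67.9 CPM. The EpCAM- values lay on both sides of the EpCAM+ values, replicates 1 and 2 above and replicates 3 and 4 below, and the log2 fold change was 0.03 (SE 0.11, 95% interval -0.22 to 0.28, adjusted p = 0.839, edgeR). The sign of so small a value changed with the library left out.

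*Tnfrsf1b* (chromosome 4, 145213463 to 145246870, minus strand) encodes the TNF receptor that lacks a death domain and signals through TRAF2. It measured 43.5, 42.3, 41.2, and 36.8 CPM in EpCAM+ replicates 1 to 4 and 43.8, 31.0, 33.2, and 30.5 CPM in EpCAM- replicates 1 to 4. EpCAM- replicate 1 was as high as the highest EpCAM+ library, and the remaining EpCAM- libraries lay below all EpCAM+ libraries. The log2 fold change was 0.24 (SE 0.12, adjusted p = 0.136, edgeR) without the pairing and 0.25 (SE 0.09, adjusted p = 0.0455) with it, with EpCAM+ higher in 3 of 4 pairs. Without EpCAM- replicate 1 the unpaired log2 fold change was 0.37 (adjusted p = 0.01, edgeR). That library also had the highest monocyte and neutrophil lineage markers, whose part was not tested otherwise.

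**Figure D2:**
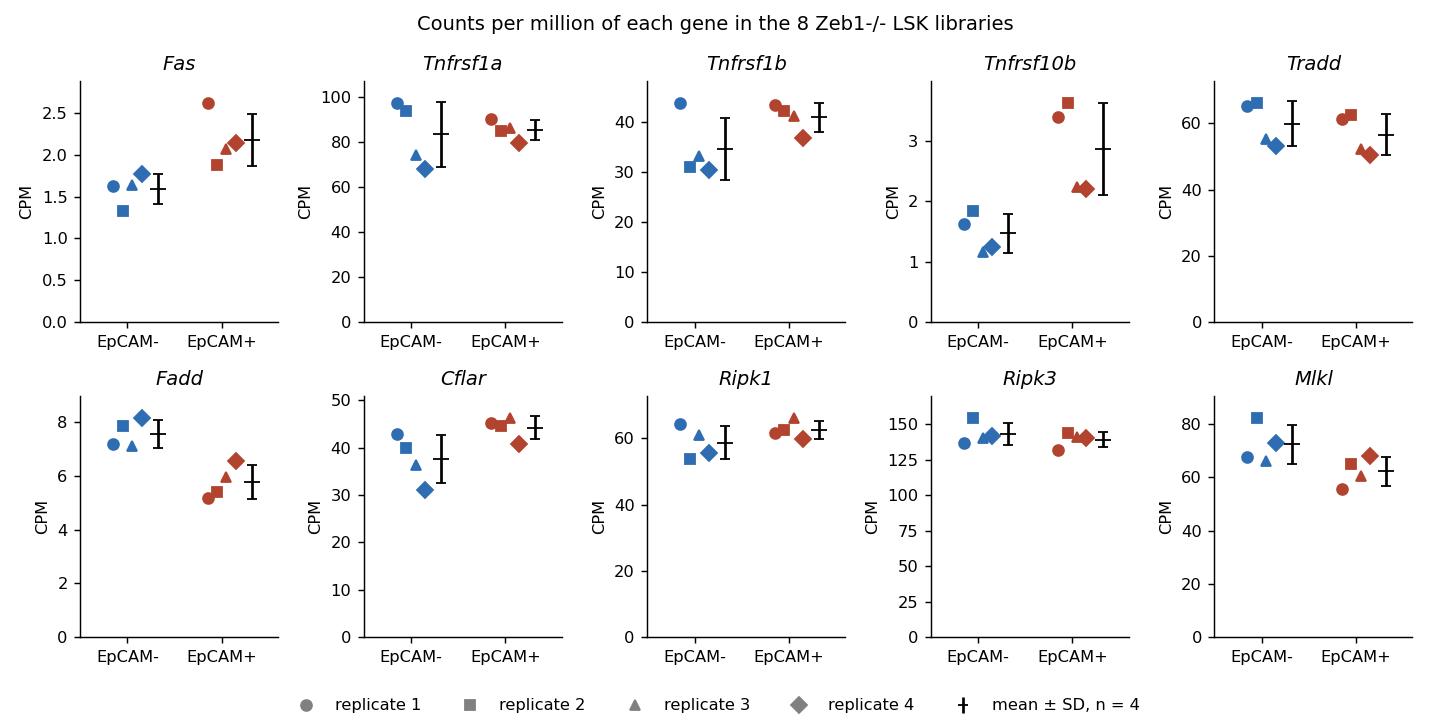
CPM of each of the 10 genes in each library (vertical axes from 0, a scale for each gene), with EpCAM- libraries in blue, EpCAM+ libraries in red, marker shapes for replicate numbers, and black bars for the mean ± SD of 4 libraries. The fractions separate completely for *Fas*, *Tnfrsf10b*, and *Fadd* only, and the *Tnfrsf1a* EpCAM- libraries are spread from 67.9 to 97.2 CPM.

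Neither adaptor passed the test. *Tradd* (chromosome 8, 105258286 to 105264609, minus strand), the first adaptor on the TNF receptor, measured 61.3, 62.5, 52.2, and 50.3 CPM in EpCAM+ replicates 1 to 4 and 65.2, 66.1, 55.3, and 53.0 CPM in EpCAM- replicates 1 to 4. The spread within a fraction followed the replicate number, and within each pair EpCAM+ was lower by 0.08 to 0.09 on the log2 CPM scale. The log2 fold change was -0.08 (SE 0.10, adjusted p = 0.549, edgeR), with an adjusted p of 0.277 in the paired fit. That small sign depended on the scaling and was 0.00 under upper-quartile scaling as well as under library totals, both of which moved the median of all tested genes from 0.02 to 0.11.

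*Fadd* (ENSMUSG00000031077, chromosome 7, 144577318 to 144582463, minus strand) links death receptors to caspase-8. It gave 5.17, 5.39, 5.98, and 6.55 CPM in EpCAM+ replicates 1 to 4 and 7.18, 7.84, 7.10, and 8.16 CPM in EpCAM- replicates 1 to 4. Every EpCAM+ library lay below every EpCAM- library, and EpCAM+ was lower in 4 of 4 pairs. On the log2 scale the difference was -0.39 (SE 0.15, 95% interval -0.72 to -0.06, adjusted p = 0.0551, edgeR) and -0.39 with the pairing (adjusted p = 0.0524), so neither fit passed the threshold. It passed only without EpCAM+ replicate 4 (log2 fold change -0.46, adjusted p = 0.0482, edgeR). The gene shares 239 exonic bases with its antisense gene *Faddos*, which had 0 to 2 reads per library, and the sources used here do not say whether reads were counted by strand.

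The inhibitor *Cflar* (ENSMUSG00000026031, chromosome 1, 58711508 to 58758884, plus strand) lies beside *Casp8* (chromosome 1, 58795374 to 58847503, plus strand). It measured 45.2, 44.5, 46.3, and 40.7 CPM in EpCAM+ replicates 1 to 4 and 42.9, 39.9, 36.3, and 31.1 CPM in EpCAM- replicates 1 to 4. The ranges overlapped through EpCAM- replicate 1, but EpCAM+ was higher in 4 of 4 pairs, by 0.07 to 0.39 on the log2 CPM scale. The log2 fold change was 0.23 (SE 0.10, adjusted p = 0.0939, edgeR) without the pairing and 0.24 (SE 0.08, adjusted p = 0.036) with it. Upper-quartile scaling (0.32, adjusted p = 0.0375, edgeR) and leaving out EpCAM- replicate 1 (0.30, adjusted p = 0.0402) also took it past the threshold. *Casp8*, the protease that both FADD and cFLIP bind, averaged 186 ± 5.96 CPM and 191 ± 19.0 CPM (SD, n = 4 per fraction), with a log2 fold change of -0.03 (SE 0.08, 95% interval -0.21 to 0.14, adjusted p = 0.752, edgeR).

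Of the kinases, *Ripk1* (chromosome 13, 34002363 to 34037147, plus strand) encodes the scaffold and kinase shared by the survival, apoptosis, and necroptosis complexes. It measured 61.6, 62.5, 66.2, and 59.7 CPM in EpCAM+ replicates 1 to 4 and 64.4, 53.7, 61.0, and 55.5 CPM in EpCAM- replicates 1 to 4. The ranges overlapped, and the log2 fold change of 0.09 (SE 0.08, 95% interval -0.08 to 0.26, adjusted p = 0.366, edgeR) did not pass the test. Its exons share 241 bases with *Serpinb6a* on the opposite strand, which had 223 to 405 reads per library, and 511 bases with the pseudogene *Gm17084*, which had 0.

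*Ripk3* (ENSMUSG00000022221, chromosome 14, 55784995 to 55788865, minus strand) was the best measured of the 10 genes, with 1926 to 2535 reads per library. Its levels were 132, 144, 141, and 140 CPM in EpCAM+ replicates 1 to 4 and 137, 154, 140, and 142 CPM in EpCAM- replicates 1 to 4. All EpCAM+ libraries but replicate 1 lay inside the EpCAM- range. The fitted difference was -0.04 on the log2 scale (SE 0.07, adjusted p = 0.642, edgeR), and its 95% interval of -0.19 to 0.10 corresponds to 0.880 to 1.07 times the EpCAM- level. With upper-quartile scaling or library totals the sign was the opposite, at 0.05 and 0.04.

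*Mlkl* (ENSMUSG00000012519, chromosome 8, 111311797 to 111338177, minus strand), the executor that RIPK3 activates, measured 55.6, 65.0, 60.4, and 68.1 CPM in EpCAM+ replicates 1 to 4 and 67.7, 82.3, 66.2, and 73.0 CPM in EpCAM- replicates 1 to 4. EpCAM+ was lower in 4 of 4 pairs, by 0.10 to 0.34 on the log2 CPM scale, although EpCAM+ replicate 4 reached into the EpCAM- range. The difference was -0.21 on the log2 scale without the pairing (SE 0.09, adjusted p = 0.0851, edgeR) and -0.21 with it (SE 0.07, adjusted p = 0.0278). *Mlkl* was the only one of the 10 genes called lower in the paired fit.

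**Figure D3:**
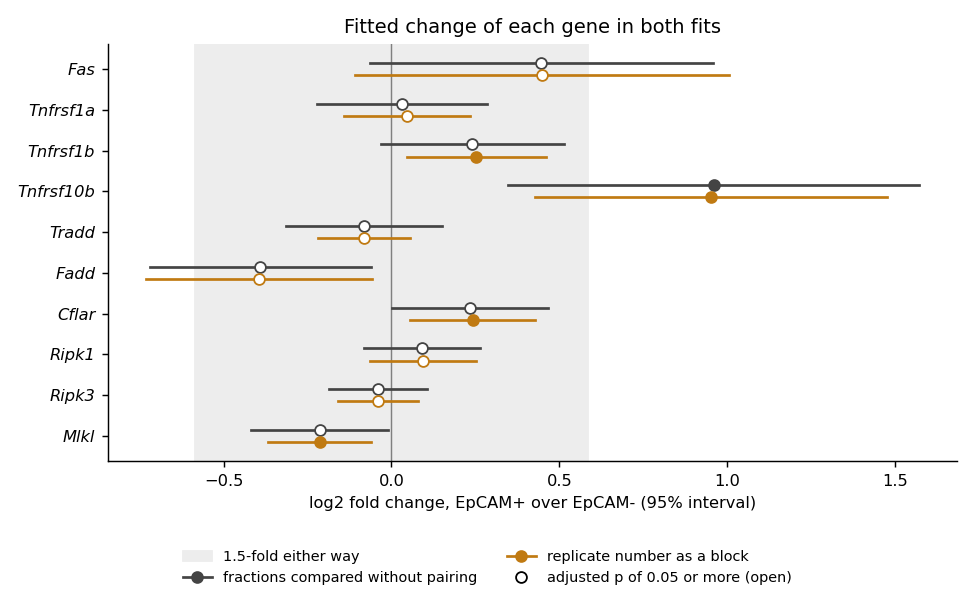
Fitted log2 fold change of EpCAM+ over EpCAM- libraries for each gene (horizontal axis), with lines for the 95% interval, grey for the fit without pairing and orange for the replicate number as a block, filled points for an adjusted p under 0.05, and a shaded band for 1.5-fold either way. *Tnfrsf10b* at 0.96 is filled in both fits, while *Tnfrsf1b*, *Cflar*, and *Mlkl* are filled only with the block, where the intervals are narrower and the points hardly move.

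Ratios of 2 genes within 1 library do not depend on how libraries are scaled to each other, and they describe the balance of partners in the pathway. They are given without a test. No share without overlap was computed over other pairs of genes. For single genes it was 40.1% of all tested genes. *Cflar* to *Casp8*, the inhibitor to its protease, stood at log2 ratios of -2.07, -2.10, -1.94, and -2.19 in EpCAM+ replicates 1 to 4 and -2.24, -2.39, -2.31, and -2.44 in EpCAM- replicates 1 to 4. On the linear scale this is 0.220 to 0.260 reads of *Cflar* per read of *Casp8* in EpCAM+ libraries and 0.184 to 0.211 in EpCAM- libraries, without overlap. *Cflar* to *Fadd* was 3.13, 3.05, 2.95, and 2.64 against 2.58, 2.35, 2.35, and 1.93, also without overlap, or 6.22 to 8.76 against 3.81 to 5.98 reads of *Cflar* per read of *Fadd*. The mean difference of these log2 ratios was 0.27 for *Cflar* to *Casp8* and 0.64 for *Cflar* to *Fadd*. Both ratios share *Cflar*, and the level of *Fadd* alone was also without overlap.

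*Mlkl* to *Ripk3*, the executor to its kinase, was -1.24, -1.14, -1.22, and -1.04 in EpCAM+ replicates 1 to 4 and -1.01, -0.91, -1.08, and -0.96 in EpCAM- replicates 1 to 4. EpCAM+ was the lower member of every pair, but the ranges overlapped. *Ripk3* to *Ripk1* (1.09 to 1.23 against 1.08 to 1.52), *Tradd* to *Fadd* (2.94 to 3.57 against 2.70 to 3.18), and *Fas* to *Tnfrsf10b* (-0.96 to -0.04 against -0.47 to 0.50) overlapped as well. *Tnfrsf1b* to *Tnfrsf1a*, the TNF receptor without to the one with a death domain, was -1.11 to -1 in EpCAM+ libraries and -1.59 to -1.15 in EpCAM- libraries. These ranges did not overlap, and EpCAM- replicate 2, at -1.59, lay far from the other EpCAM- libraries.

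**Figure D4:**
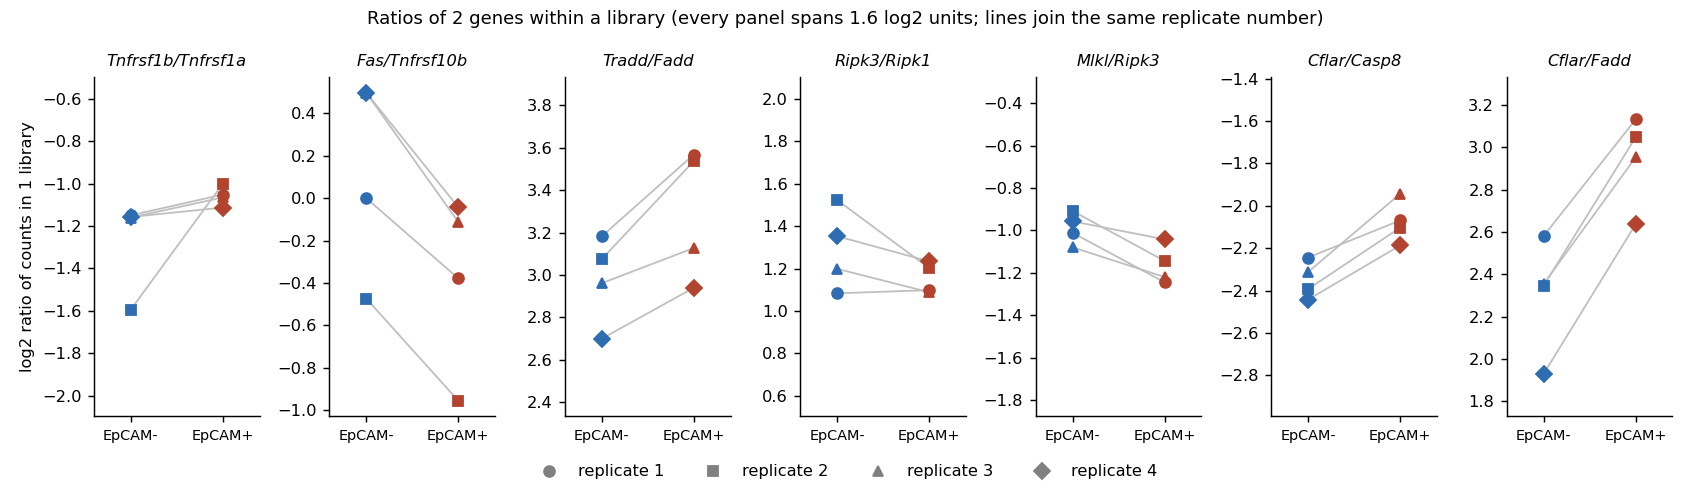
Log2 ratio of the read counts of 2 genes within each library (vertical axes, each panel spanning the same range), for 7 pairs of genes, with EpCAM- in blue, EpCAM+ in red, and lines joining libraries of the same replicate number. *Tnfrsf1b/Tnfrsf1a*, *Cflar/Casp8*, and *Cflar/Fadd* are higher in all EpCAM+ libraries, and the remaining 4 ratios overlap. Several ratios share a gene, and no share without overlap was computed over other pairs of genes.

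The wider pathway was read from 7 lists of 83 genes, 75 of which could be tested. Of these, 25 were higher, 16 were lower, and 34 did not pass, and the median log2 fold change was 0.14. Of all tested genes, 21.8% were higher and 20.8% lower. The count of lower genes fell to 9 with upper-quartile scaling, to 7 with library totals, and to 10 without EpCAM+ replicate 3 or without EpCAM- replicate 3. Among the listed ligands of the TNF family, 2 of 3 tested genes were higher and none was lower (3 of 3 higher in the paired fit). *Ltb*, which encodes the membrane-bound subunit of lymphotoxin, averaged 79.7 ± 26.4 CPM against 12.9 ± 10.01 CPM (SD, n = 4 per fraction), with a log2 fold change of 2.61 (SE 0.44, adjusted p = 0.00136, edgeR). Without EpCAM+ replicate 1, the library with the highest plasma cell, dendritic cell, and B cell markers, the *Ltb* value was 2.38 (adjusted p = 0.00386). *Tnfsf10*, which encodes TRAIL, the ligand of the *Tnfrsf10b* product, averaged 18.6 ± 2.56 CPM against 10.9 ± 3.51 CPM (SD, n = 4 per fraction), with a log2 fold change of 0.77 (SE 0.21, adjusted p = 0.0138, edgeR). Fas ligand (*Fasl*) and lymphotoxin alpha (*Lta*) had 0 reads in every EpCAM- library and up to 6 and 5 reads in an EpCAM+ library, too few for a test.

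For comparison, 21.8% of all tested genes were higher and 20.8% lower (25.6% and 24.7% in the paired fit). Among the other death domain and decoy receptors, 1 of 5 tested genes was higher (2 in the paired fit) and none was lower. This gene was *Edar*, the ectodysplasin receptor, with 17 to 32 reads in each EpCAM+ library and 3 reads in all EpCAM- libraries together, a ratio of 28.8 after scaling with a 95% exact interval of 9.57 to 142 that covers counting error only. With at most 3 reads in any EpCAM- library, *Edar* passed the filter on low counts only through the EpCAM+ libraries in which it is high, so its call is a description, and none of the 4 other tested genes passed the threshold without the pairing. *Ngfr* had 0 reads in all 8 libraries. Of the 17 ubiquitin ligases and deubiquitinases of the receptor complex, 8 were higher and 2 were lower, with a median log2 fold change of 0.29. The 8 became 5 without EpCAM+ replicate 3, EpCAM+ replicate 4, EpCAM- replicate 2, or EpCAM- replicate 3, and the 2 lower genes became 1 when any library except EpCAM+ replicate 4 was left out. Those with the smallest adjusted p were *Peli1* (log2 fold change 0.68), *Traf1* (2.78), *Traf5* (0.86), and *Xiap* (0.44), which encode an E3 ligase that acts on RIPK1, a pair of TRAF adaptors, and a caspase inhibitor. *Traf1* averaged 10.4 ± 4.45 CPM against 1.47 ± 1.11 CPM (SD, n = 4 per fraction).

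Of 12 kinases and partners that phosphorylate or restrain RIPK1, 2 were higher and 3 were lower, with a median of 0.00 (2 and 4 in the paired fit). Over all tested genes, 21.8% were higher and 20.8% lower (25.6% and 24.7% in the paired fit), so the counts of this list were near those shares. None was higher without EpCAM+ replicate 1, EpCAM+ replicate 4, or EpCAM- replicate 3, and 1 was without EpCAM+ replicate 3, EpCAM- replicate 2, or EpCAM- replicate 4. *Mapkapk2*, which encodes MK2, a kinase that phosphorylates RIPK1, averaged 140 ± 6.61 CPM against 229 ± 17.5 CPM (SD, n = 4 per fraction) and had a log2 fold change of -0.71 (SE 0.07, adjusted p = 0.000182, edgeR). *Tank* (-0.39), *Tab2* (0.28), and *Map3k7* (-0.34), which encode an adaptor of TBK1, a partner of TAK1, and TAK1 itself, were the next by adjusted p. Of 10 genes of the caspase-8 arm, 1 was higher and 5 were lower, with a median of -0.23. *Bid*, which encodes the caspase-8 substrate that carries the signal to mitochondria, averaged 89.4 ± 8.38 CPM against 135 ± 5.65 CPM (SD, n = 4 per fraction) and had a log2 fold change of -0.59 (SE 0.08, adjusted p = 0.000466, edgeR). *Dap3*, which encodes a mitochondrial ribosomal protein, changed by -0.62 and *Faf1*, which encodes a FAS-associated factor, by -0.32. The EpCAM- libraries that were higher in these genes also held more neutrophil lineage and erythroid marker RNA, whose part in the result was not tested.

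Of the 17 other RHIM proteins and regulators of MLKL, 1 was higher and 6 were lower, with a median of -0.04. The paired fit called 3 higher and 6 lower. Over all tested genes, 21.8% were higher and 20.8% lower (25.6% and 24.7% in the paired fit). The lower genes numbered 2 without EpCAM+ replicate 3 and 3 without EpCAM+ replicate 4, EpCAM- replicate 3, or EpCAM- replicate 4, and the higher genes 2 without EpCAM- replicate 1. The gene called higher with all libraries and no pairing was *Zbp1*, an interferon-inducible nucleic acid sensor with RHIM motifs that can engage RIPK3, at 8.45 ± 3.50 CPM against 2.55 ± 0.841 CPM (SD, n = 4 per fraction) and a log2 fold change of 1.71 (SE 0.32, adjusted p = 0.00221, edgeR). Without EpCAM+ replicate 1, the library with the highest plasma cell markers, the *Zbp1* value was 1.39 (adjusted p = 0.0046). *Ipmk*, which encodes a kinase of the inositol phosphate pathway that MLKL depends on, changed by -0.74, *Cdc37*, an HSP90 cochaperone, by -0.28, and *Flot2*, which encodes a flotillin of membrane rafts, by -0.35. Of 11 tested interferon-stimulated genes, 10 were higher and none was lower, with a median of 1.03. *Irf7* (1.67), *Mx1* (4.22, with 0 to 4 reads per EpCAM- library, so that it passed the filter only through EpCAM+ libraries), *Ifi44* (1.601), and *Usp18* (1.03) had the smallest adjusted p, and *Oas1a* was the gene that did not pass. With the pairing, all 11 were higher. The summed level of this list was 332 to 465 CPM in EpCAM+ libraries and 181 to 287 CPM in EpCAM- libraries, highest in EpCAM+ replicate 1. That library also had the highest plasma cell (3631 CPM), conventional dendritic cell (222 CPM), and B cell (167 CPM) marker sums, and without it 8 of the 11 genes were higher. The interferon-response core was found in 5 of the 9 such genes with a promoter window (*Ifit1*, *Ifit3*, *Isg15*, *Oas1a*, and *Rsad2*). Of these, *Ifit3* was not tested with all libraries, and *Oas1a* did not pass without the pairing.

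**Figure D5:**
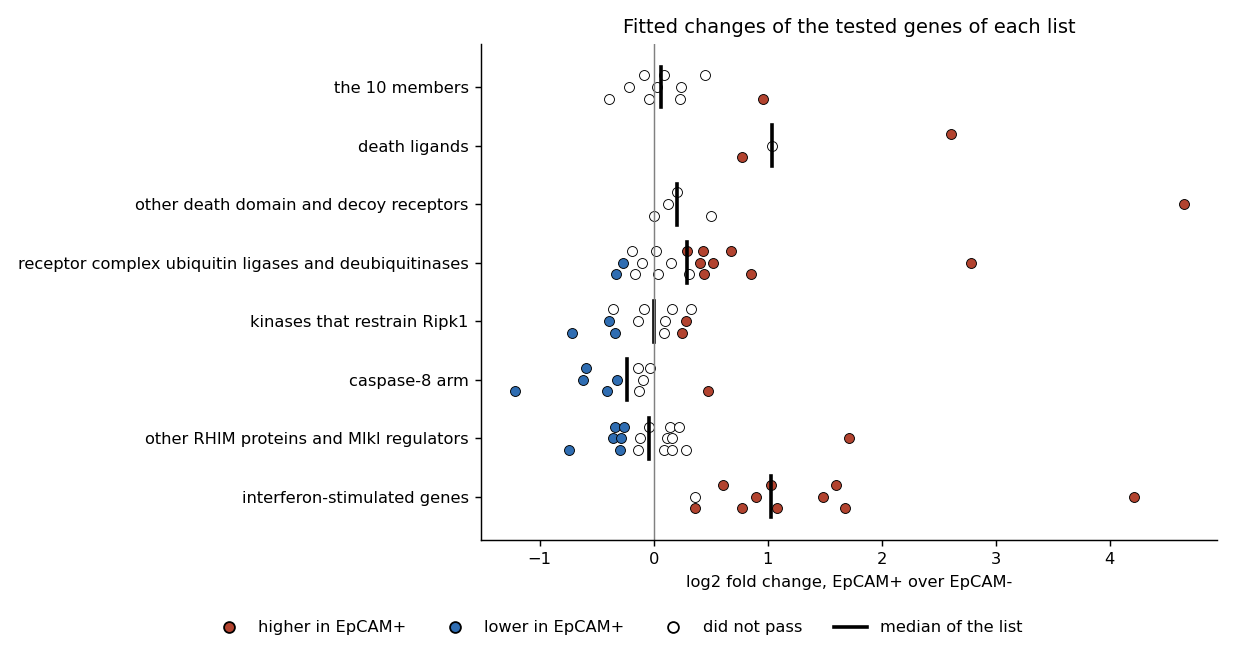
Fitted log2 fold changes of EpCAM+ over EpCAM- libraries (horizontal axis) for the tested genes of each list (rows), with red points for genes higher in EpCAM+, blue for genes lower, white for genes that did not pass, and a black bar for the median of the list. The 10 death receptor and necroptosis genes lie close to 0 with 1 red point, while 10 of 11 interferon-stimulated genes are red and 5 of 10 genes of the caspase-8 arm are blue.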

How the data were processed

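RNA was amplified with SMART-Seq v4 and sequenced in paired ends. Per the labels and the submitters' processing notes, which name STAR 2.6.1d, featureCounts 1.5.0-p3, DESeq2 1.20.0, and GRCm38.p6, the authors aligned reads and deposited unnormalized read counts per gene, FPKM, and gene lengths. Strandedness and the handling of reads that align to several places are not given in the sources used here. The 15 columns of the authors' own comparisons (fold changes and p-values) were not used.

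Counts were filtered with filterByExpr, scaled by TMM, and tested with edgeR 4.0.16 in R 4.3.3 (quasi-likelihood test, two-sided, Benjamini-Hochberg adjustment over 13560 genes, threshold 0.05). Alternatives used DESeq2 1.42.0, limma 3.58.1, other scalings and filters, protein-coding genes alone, the replicate number as a block, and each library left out. Figures were drawn with matplotlib 3.10.9. Same-numbered libraries deviated together from their fraction means (correlation across genes 0.205 to 0.356 in 4 pairs, against -0.216 to 0.0396 in 12 others). This pairing comes from the data, since the labels do not say what a number shares. Within-fraction pairs were no duplicates (chi-square per degree of freedom 9.8 to 91.7). Per the labels there were 4 mice per genotype, but no library is tied to a mouse, so p-values measure the spread between these libraries. In a simulation on 13757 genes with 200 changed 2-fold, 185 of 193 tested were recovered with 11 false calls. In the data 42.6% of tested genes were called, and the largest fitted change among the 10 genes was 1.94-fold. The simulation therefore cannot tell how often changes smaller than 2-fold, as in the 10 genes, would be missed.

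Members and gene lists were chosen with earlier results of these data known. Genes named are the 10 members, *Epcam*, *Zeb1*, *Casp8*, up to 4 genes per pathway list with the smallest adjusted p, and genes at 0 in a fraction, except that an item named by this rule is not reported here. *Oas1a*, *Faddos*, *Serpinb6a*, *Gm17084*, *Lck*, *Jchain*, *Clec9a*, *Mpo*, *Ifit1*, *Ifit3*, *Isg15*, and *Rsad2* were named after their values were seen. One read corresponds to 0.0559 to 0.074 CPM. Levels per kilobase used the deposited lengths.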

Additional observations from a re-analysis of the deposited data

Results flagged for a closer look

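The log2 ratio of *Tnfrsf1b* to *Tnfrsf1a* counts in EpCAM- replicate 2 was -1.59, far from -1.16 to -1.15 in the other EpCAM- libraries. It stood apart by Dixon's criterion for 4 samples. Of 36 groups of 4 libraries examined in this way (levels and ratios of the 10 genes and *Casp8* in each fraction), this was the only one, and chance alone marks about 1 in 20. In counts, the library had 419 reads of *Tnfrsf1b* and 1265 of *Tnfrsf1a*.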

How the results depend on the processing

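Each result was recomputed under up to 17 alternatives. *Tnfrsf10b* kept its direction in all 17 (log2 fold change 0.82 to 1.08) and passed the threshold in 14, and it was the only gene of the 10 called by DESeq2 and by limma-trend. The number of the 10 genes called higher, 1 in the main test, was 2 with upper-quartile scaling, 3 with the replicate block, and 0 to 3 with a library left out (0 without EpCAM+ replicate 1, EpCAM+ replicate 2, or EpCAM- replicate 3, and 3 without EpCAM- replicate 1), and the number called lower, 0 in the main test, was 1 with the block and 0 to 1 with a library left out (1 without EpCAM+ replicate 4). The block changed the calls of *Tnfrsf1b* (0.25), *Cflar* (0.24), and *Mlkl* (-0.21) among the 10 genes and of no other. Over the 7 pathway lists, the 25 genes called higher became 17 to 26 with a library left out, and the 16 called lower became 9 with upper-quartile scaling, 7 with library totals, and 10 to 15 with a library left out. Values near 0 changed sign: *Tradd* to 0.0019 with upper-quartile scaling and 0.0011 with library totals, *Ripk3* to 0.046 and 0.045, *Casp8* to 0.0501 and 0.048. With a library left out, *Casp8* ranged from -0.0936 to 0.0048 and *Tnfrsf1a* from -0.0599 to 0.11, with -0.0027, -0.026, and -0.0599 below 0. With the authors' FPKM, 6 of 10 genes kept their place in the order of levels in EpCAM+ libraries and 7 in EpCAM- libraries. The cause of these changes was not tested. *Fas* and *Tnfrsf10b* rest on 17 to 64 reads per library, and read counts without molecular identifiers understate their error.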
